A study of Bos taurus with 6 samples.

Results

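The stromal and vascular miRNAs of cow milk extracellular vesicles (EVs) were taken by name as all rows called bta-miR-143, bta-miR-145, bta-miR-199a, bta-miR-199b, bta-miR-199c, bta-miR-214 or bta-miR-126, with or without an arm. The arm, 5p or 3p, is the side of the hairpin precursor from which a mature miRNA is cut. The names matched 8 of the 276 known miRNAs, which are rows with a Bos taurus name of miRBase, and 8 of all 779 rows, of which 503 were predicted sequences. No row was named bta-miR-199c. Small RNA libraries were made from milk EVs of 6 female Holstein cows in mid lactation (101 ± 10 days in milk according to the labels, which do not say what the error is), each housed in a controlled chamber at 20 °C. Of these, 3 cows ate a total mixed ration (TMR, the control diet), and 3 ate a diet with less alfalfa hay, to which whole cotton seed and soybean hull had been added in its stead (the replacement diet). Each cow gave 1 library, and neither the ages of the cows nor a batch is given in the labels.

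Known miRNAs received 61156 to 176919 counts per cow, and the share of a miRNA is its percentage of these counts in that cow. Where a miRNA had no count, 3 counts of the total were taken as the upper limit, which is 0.0017% in the deepest library and 0.00491% in the one with fewest counts. Limits and Wilson intervals cover counting error only, since PCR copies of a molecule are counted as if they were separate molecules. As a share of known counts, 1 library stood apart in red blood cell miRNAs. In control cow 3, the red blood cell list (7 rows, led by bta-miR-486, bta-miR-451 and bta-miR-92a) held 20.1% of the counts, against 6.52% to 10.9% in the other cows. Known miRNAs were only 15.8% of all counts in that cow, the lowest of the 6, against 21.5% to 42.0% in the others. In the deposited RPM values, which are counts scaled to all reads of a cow, the list did not stand apart, with 990.4 in control cow 3, 923.2 in control cow 2 and 862.5 in replacement cow 1.

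A miRNA is a short RNA that pairs with messenger RNAs, mainly through its seed, the bases 2 to 8 of the mature strand, and lowers their translation or stability. The miRNAs described here are best known from cells of the vessel wall and of connective tissue. Endothelial cells, which line blood vessels, express miR-126 from within the EGFL7 gene, and platelets carry it as well. Smooth muscle cells and fibroblasts express miR-143 and miR-145 from 1 shared primary transcript, and mesenchymal cells express miR-199a and miR-214 from another. Milk EVs can come from several cell types, and the names stromal and vascular say where these miRNAs are known from, not where the EVs were made.

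The 8 mature sequences are printed as deposited, in DNA letters from 5′ to 3′, with the seed in capitals, because arms, clusters and shared seeds order all results that follow.
bta-miR-126-3p: cGTACCGTgagtaataatgcg
bta-miR-126-5p: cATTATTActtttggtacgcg
bta-miR-143: tGAGATGAagcactgtagctcg
bta-miR-145: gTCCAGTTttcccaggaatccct
bta-miR-199a-3p: aCAGTAGTctgcacattggtta
bta-miR-199a-5p: cCCAGTGTtcagactacctgtt
bta-miR-199b: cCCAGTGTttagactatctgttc
bta-miR-214: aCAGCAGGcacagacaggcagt
The sequences were 21 to 23 nt long. In the whole table, bta-miR-199a-5p and bta-miR-199b were the only members that shared a seed with another known miRNA, and they shared it with each other. Counted from the 5′ end of bta-miR-199a-5p, they differed by the substitutions C10T and C17T, and bta-miR-199b had 1 further base at its 3′ end. The row named bta-miR-199b therefore held the 5p arm by its sequence. No known or predicted row lay within an edit distance of 2 of any member or contained one. The mature miR-199a-3p can be cut from more than 1 precursor, and its reads do not tell which.

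In the RefSeq gene table of the cow assembly ARS-UCD2.0, all 8 precursor genes looked up were found. The authors used another version of the assembly, so no coordinates are given. MIR143 and MIR145 lay within 10 kb of each other inside 1 long noncoding RNA gene. MIR199A-1 lay within 10 kb of MIR214 in the span of DNM3, which encodes a dynamin, while MIR199A-2 lay in DNM2 and MIR199B in DNM1, 2 further dynamin genes. MIR126 lay in the span of EGFL7. The gene MIR3604-1 spanned MIR199A-2, and the gene MIR3604-2 lay within 10 kb of MIR199B. Counts of the mature bta-miR-3604 do not tell which gene they came from. It is shown here because it is the exact reverse complement of bta-miR-199a-3p over all 22 nt, and has the following sequence.
bta-miR-3604: taaccaatgtgcagactactgt
It received 6 counts, all in control cow 2, against 431 counts of bta-miR-199a-3p over the 6 cows.

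Together the 8 miRNAs held 1.42% ± 0.386 (SD, n = 6 cows) of the known miRNA counts, with 8121 counts in all. The share was 1.60%, 1.09% and 1.92% in control cows 1 to 3 and 0.850%, 1.52% and 1.57% in replacement cows 1 to 3. Replacement cow 1 was the lowest and control cow 3 the highest, and the diets overlapped. In such bulk samples fewer EVs of a cell type and less of a miRNA per EV cannot be told apart. Of the 8 miRNAs, 5 were counted in every cow, and 4 had at least 10 counts in every cow. The 2 arms of miR-126 made up the larger part, with 37.2% of the member counts on average for bta-miR-126-3p and 32.4% for bta-miR-126-5p. bta-miR-143 added 20.4% and bta-miR-199a-3p 5.48%, and the other 4 added at most 7.32% each in any cow, a value reached by bta-miR-199a-5p in replacement cow 3.

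**Figure D1:**
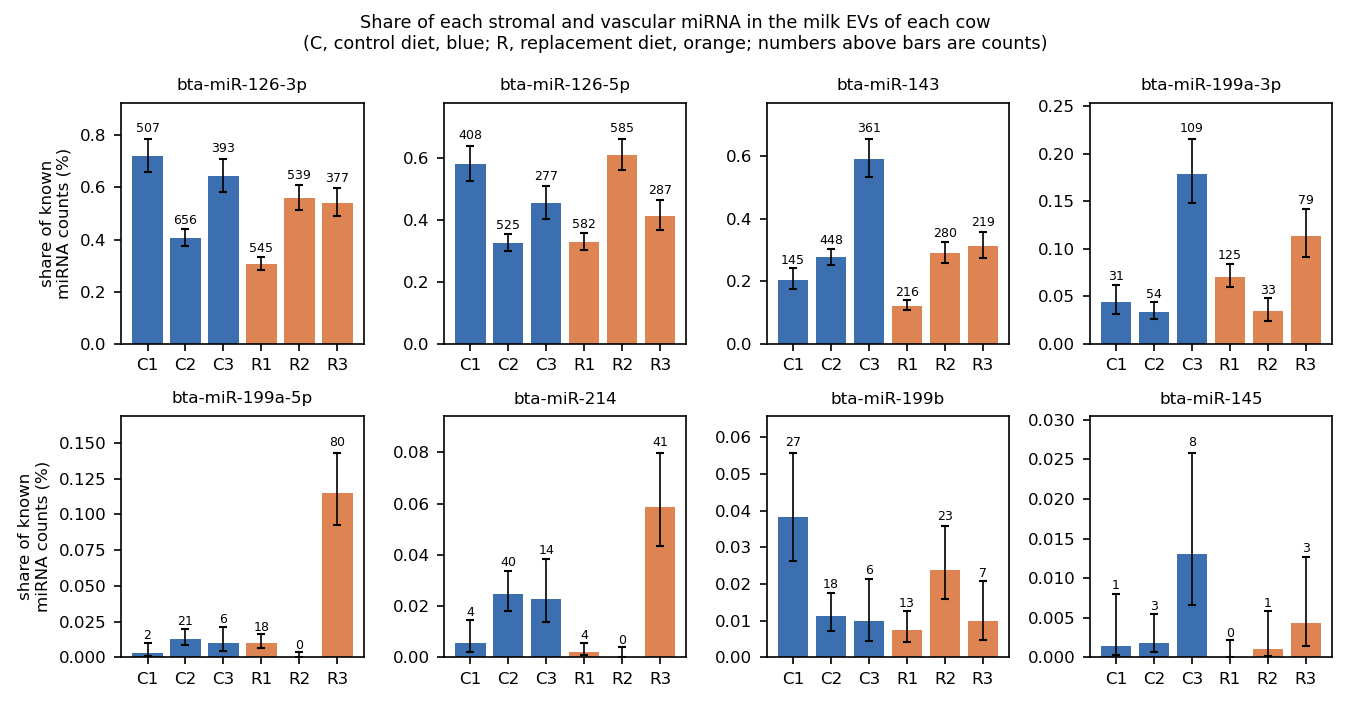
Share of each of the 8 miRNAs in the known miRNA counts (percent, vertical axis, a scale of its own in each panel) in each cow (C1 to C3, control diet; R1 to R3, replacement diet), with the 95% Wilson interval as the bar and the count above it. bta-miR-199a-5p and bta-miR-214 are highest in replacement cow 3 and have no count in replacement cow 2, and bta-miR-143, bta-miR-145 and bta-miR-199a-3p are highest in control cow 3.

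The endothelial miRNA miR-126 was the most abundant of these miRNAs. Its 3p arm held 0.719%, 0.407% and 0.643% in control cows 1 to 3 and 0.308%, 0.560% and 0.541% in replacement cows 1 to 3, with 377 to 656 counts per cow. It ranked from 24 to 37 among the known miRNAs of a cow. Its 5p arm held 0.579%, 0.326% and 0.453% in the control cows and 0.608% in replacement cow 2, between 0.329% and 0.412% in the other replacement cows. Control cow 2 and replacement cow 1, the deepest libraries, held the lowest shares of both arms, and neither arm separated the diets. In RPM the order of the cows was another, since the 3p arm was highest in control cow 2 at 52.1, with 40.8 in replacement cow 1. The 5p arm had 41.7 and 43.5 RPM in these cows, against 48.2 in replacement cow 2 and 22.3 to 31.2 in the other 3. The mean share was 0.530% ± 0.151 (SD, n = 6) for the 3p arm and 0.451% ± 0.121 (SD, n = 6) for the 5p arm.

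The balance of the miR-126 arms differed between cows by more than counting error. The 5p arm made up 44.6%, 44.5% and 41.3% of the reads of both arms in control cows 1 to 3, and 43.2% in replacement cow 3. In replacement cows 1 and 2 it made up 51.6% (95% Wilson interval 48.7% to 54.5%) and 52.0% (49.1% to 55.0%), both above the upper limits of the other 4 cows, of which 47.8% in control cow 1 was the highest. Both intervals include equal parts of the 2 arms, so an excess of 5p reads in these 2 cows was within counting error. Replacement cow 3 lay below control cows 1 and 2, so the diets overlapped. A diet difference in this balance was not tested. The ratio of the arms, from 0.705 to 1.09, varied 1.54-fold over the cows.

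The smooth muscle and fibroblast miRNA bta-miR-143 held 0.206%, 0.278% and 0.590% in control cows 1 to 3, and 0.122%, 0.291% and 0.315% in replacement cows 1 to 3. Its mean of 0.300% ± 0.158 (SD, n = 6) fell to 0.242% without control cow 3, and its rank ran from 30 in that cow to 58 in replacement cow 1. Its cluster partner bta-miR-145 was close to the limit of detection, with 1, 3 and 8 counts on the control diet and 0, 1 and 3 on the replacement diet. In replacement cow 1 it had none, which allows a share of up to 0.0017%. Over all cows bta-miR-143 had 1669 counts against 16 of bta-miR-145, a ratio of 104. It made up 97.8% to 100% of the reads of the pair in each cow, so that 1 partner of the cluster was counted almost alone. As shares both were highest in control cow 3, the cow with the highest share of the red blood cell list. In RPM bta-miR-143 was highest in control cow 2, at 35.6 against 29.05 in control cow 3, while bta-miR-145 was still highest in control cow 3, at 0.644. The part of red blood cells in these values was not tested.

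The mesenchymal miRNA bta-miR-199a-3p held 0.0440%, 0.0335% and 0.178% in control cows 1 to 3 and 0.0707%, 0.0343% and 0.113% in replacement cows 1 to 3, with 31 to 125 counts. It was highest in control cow 3, where the Wilson interval of 0.148% to 0.215% lay above those of all other cows, and next highest in replacement cow 3. In RPM it was highest in replacement cow 1, at 9.35, followed by control cow 3 at 8.77 and replacement cow 3 at 6.26. The mean share was 0.0790% ± 0.0573 (SD, n = 6). The other arm, bta-miR-199a-5p, was counted 2, 21 and 6 times in control cows 1 to 3 and 18, 0 and 80 times in replacement cows 1 to 3. It was thus spread over cows in another way, with 0.115% (95% Wilson interval 0.0923% to 0.143%) in replacement cow 3 against at most 0.0130% in any other. In that cow the 2 rows named miR-199a had nearly the same count, 79 for the 3p arm and 80 for the 5p arm. In the other cows the 3p row made up 72% to 100% of the reads of these 2 rows. These percentages leave out bta-miR-199b, a 5p arm by its sequence, although the precursor of the 3p reads is not known. bta-miR-199b had 27, 18 and 6 counts in control cows 1 to 3, beside 31, 54 and 109 of bta-miR-199a-3p. In replacement cows 1 to 3 it had 13, 23 and 7, beside 125, 33 and 79. The balance of the arms thus depends on whether bta-miR-199b is included.

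bta-miR-214, whose gene lay near 1 of the 2 miR-199a genes, was counted 4, 40 and 14 times in control cows 1 to 3 and 4, 0 and 41 times in replacement cows 1 to 3. Like bta-miR-199a-5p, it was highest in replacement cow 3, at 0.0589%, and had no count in replacement cow 2, which allows a share of up to 0.00312%. In RPM it was nearly the same in replacement cow 3 and control cow 2, at 3.25 and 3.18. The ratio of bta-miR-199a-5p to bta-miR-214 was 0.50, 0.525 and 0.429 in control cows 1 to 3, and 4.50 and 1.95 in replacement cows 1 and 3. In control cows 1 and 3 and in replacement cow 1 it rested on fewer than 20 counts of either miRNA. Replacement cow 2 had no count of either and so no ratio. A diet difference in this ratio was not tested. In the 5 cows with a count of bta-miR-214, the ratio of bta-miR-199a-3p to it ranged from 1.35 in control cow 2 to 31.2 in replacement cow 1. The value in replacement cow 1 rested on 4 counts of bta-miR-214. Replacement cow 2 had 33 counts of bta-miR-199a-3p and none of bta-miR-214.

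The related bta-miR-199b was counted 27, 18 and 6 times in control cows 1 to 3 and 13, 23 and 7 times in replacement cows 1 to 3. Its mean share was 0.0168% ± 0.0121 (SD, n = 6), with the highest share of 0.0383% in control cow 1. The 2 miRNAs with the shared seed were thus high in different cows. bta-miR-199a-5p made up 6.90% of their joint reads in control cow 1 and 0% in replacement cow 2, the cows with the most bta-miR-199b, and 91.95% in replacement cow 3. The Wilson intervals of the first 2 values reached up to 21.96% and 14.3%, and the lower limit of the last was 84.3%.

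**Figure D2:**
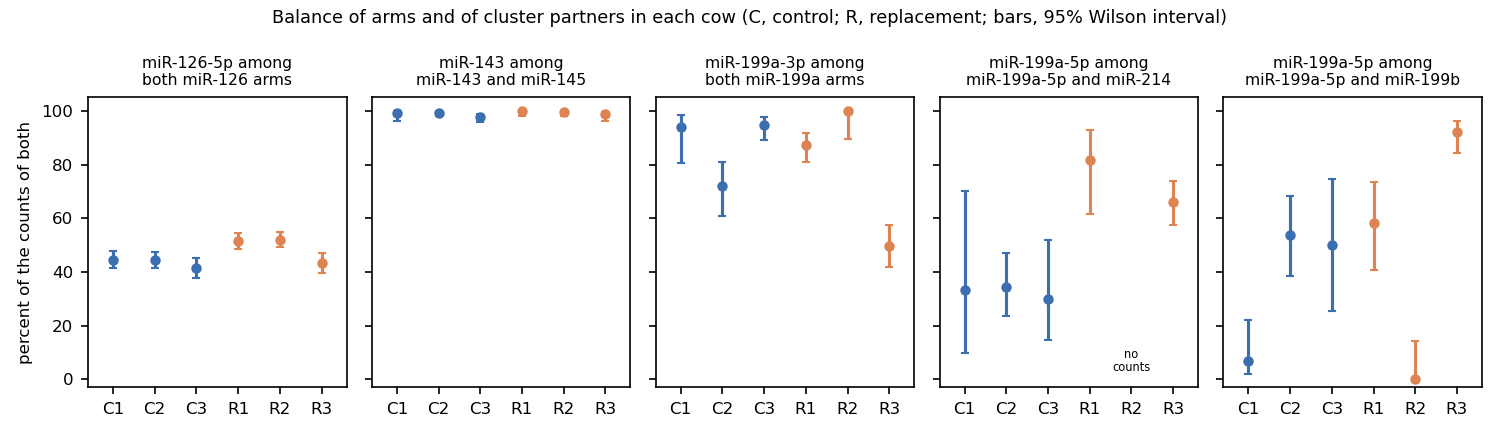
Percent of the joint counts of 2 miRNAs that belonged to the first of them (vertical axis), in each cow (C1 to C3, control diet; R1 to R3, replacement diet), with the 95% Wilson interval as the bar. The miR-126 arms stay between 41.3% and 52.0% and miR-143 is at or above 97.8%. The miR-199a arms, counted without bta-miR-199b, range from 49.7% to 100%.

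The order of the members by mean share was bta-miR-126-3p, bta-miR-126-5p, bta-miR-143, bta-miR-199a-3p, bta-miR-199a-5p, bta-miR-214, bta-miR-199b and bta-miR-145. The 7 pairs of neighbours were compared within cows by a two-sided exact sign-flip permutation test. No pair reached an adjusted p under 0.05, and the smallest adjusted p was 0.146 (exact permutation test with Benjamini-Hochberg adjustment over the 7 pairs). With 6 cows the smallest possible p is 0.0313 before adjustment. For a single pair at that p, adjustment over the 7 pairs leaves it above 0.05. The lack of called pairs thus says little about the order, which was itself taken from these shares. Only 1 pair reached the smallest possible p. This was bta-miR-143 over bta-miR-199a-3p, with a difference of 0.221 ± 0.119 percentage points (SD, n = 6) and the same direction in 6 of 6 cows. bta-miR-126-3p was higher than bta-miR-126-5p in 4 of 6 cows by 0.0787 ± 0.0945 percentage points. bta-miR-126-5p was higher than bta-miR-143 in 5 of 6 cows, the exception being control cow 3. The neighbours bta-miR-199a-5p and bta-miR-214 differed by 0.00604 ± 0.0257 percentage points, and bta-miR-214 and bta-miR-199b by 0.00232 ± 0.0296, both within the spread. Without replacement cow 3 both of these differences changed sign, to -0.00396 and -0.00698 percentage points.

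**Figure D3:**
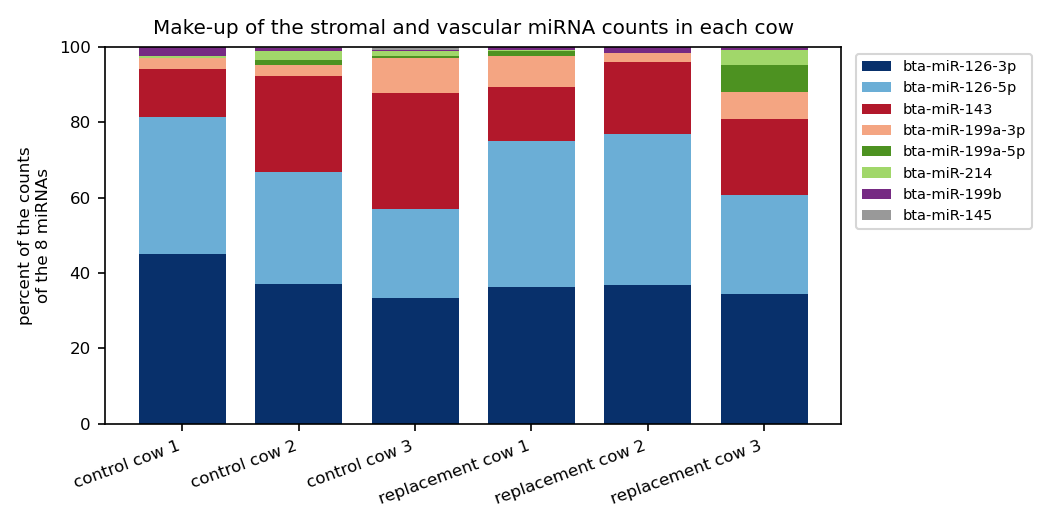
Percent of the summed counts of the 8 miRNAs (vertical axis) that each miRNA received in each cow (horizontal axis). The miR-126 arms, in blue, take the largest part in every cow, and bta-miR-143, in red, ranges from 12.9% in control cow 1 to 30.7% in control cow 3.

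The spread over cows is given for the 4 members with at least 10 counts in every cow. The coefficient of variation of the share (SD over mean) was 28.5% for bta-miR-126-3p, 26.8% for bta-miR-126-5p, 52.8% for bta-miR-143 and 72.5% for bta-miR-199a-3p. Counting error alone gives 4.60%, 4.98%, 6.11% and 11.9% at these depths. Among the 84 known miRNAs with at least 10 counts in every cow the median coefficient was 38.7%, and these 4 miRNAs stood at positions 21, 19, 62 and 75 from the narrowest. In the RPM values the 8 miRNAs together ranged from 85.9 to 140.3 RPM. They varied 1.63-fold there, against 2.26-fold as a share (a comparison added after seeing the data), and the order of the cows was not the same. Control cow 2, second lowest in share, was the highest in RPM.

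The known miRNAs whose ratio to a member varied least over the 6 cows were named as the most alike, as a description from counts that share the libraries. For bta-miR-126-3p these were bta-miR-99a-5p, bta-miR-22-3p and its own 5p arm, with a range of the ratio of 1.25-fold, 1.39-fold and 1.54-fold, against a median of 3.89-fold over 83 miRNAs. For bta-miR-126-5p they were bta-miR-100, bta-miR-99b and its own 3p arm, with 1.42-fold, 1.5-fold and 1.54-fold, against a median of 3.47-fold. bta-miR-143 was closest to bta-let-7g (1.90-fold), bta-miR-320a (2.06-fold) and bta-miR-451 (2.58-fold), against a median of 5.95-fold. bta-miR-199a-3p was closest to bta-let-7g (2.80-fold), bta-miR-486 (3.40-fold) and bta-miR-320a (3.70-fold), against a median of 6.98-fold. Of these, bta-miR-451 and bta-miR-486 belong to the red blood cell list. bta-miR-92a, of the same list, was not among the 3 closest to either bta-miR-143 or bta-miR-199a-3p. Among the members, the closest to bta-miR-143 was bta-miR-126-3p at position 12 of 83.

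The diets were compared to ask whether replacing part of the alfalfa hay went with a change of EV miRNAs. None of the 7 stromal and vascular miRNAs that passed the filter on low counts differed at an adjusted p under 0.05 (edgeR's quasi-likelihood test, Benjamini-Hochberg adjustment over 227 miRNAs, adjusted p = 0.986 for each of the 7), and bta-miR-145 was not tested. The background was the same, with 0% of the 227 tested miRNAs called. At an unadjusted p under 0.05, 8 of the 227 (3.52%) and 0 of the 7 were called. DESeq2 gave a p for all 8 members and an adjusted p for 7. With it, 7 of the 390 miRNAs with an adjusted p (1.79%) were called and none of them was a member. The cows of the 2 diets did not overlap in TMM-scaled counts for 12.8% of the tested miRNAs, and they overlapped in all 7 members.

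Fold changes are given on the log2 scale, replacement over control diet, with the standard error of the fit. They were -0.31 ± 0.36 for bta-miR-126-3p, 0.04 ± 0.41 for bta-miR-126-5p and -0.59 ± 0.52 for bta-miR-143. For these 3, whose counts are highest, the difference was thus close to or within its standard error. bta-miR-199a-3p gave -0.12 ± 0.85, bta-miR-199b -0.46 ± 1.13 and bta-miR-214 -0.20 ± 1.70, and the errors of these rarer miRNAs leave room for large changes in both directions. The largest value was 1.89 ± 1.75 for bta-miR-199a-5p, and it rested on replacement cow 3, since it was -0.41 without that cow. Without the same cow bta-miR-214 moved to -3.49, which was not called either, and without control cow 3 bta-miR-199a-3p moved to 0.76. The median over the 7 members was -0.20, beside 0.03 over all 227 tested miRNAs.

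As shares, bta-miR-126-3p had a mean of 0.590% ± 0.163 in the control cows and 0.470% ± 0.140 in the replacement cows (SD, n = 3 each), with p = 0.4 in a two-sided exact permutation test, which for 3 against 3 cows gives no p below 0.1. For bta-miR-143 they were 0.358% ± 0.204 and 0.243% ± 0.105 (exact permutation test, p = 0.6). For bta-miR-199a-3p they were 0.0852% ± 0.0807 and 0.0728% ± 0.0396 (exact permutation test, p = 0.9). The p of the other 5 miRNAs was between 0.5 and 1 in the same exact permutation test.

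**Figure D4:**
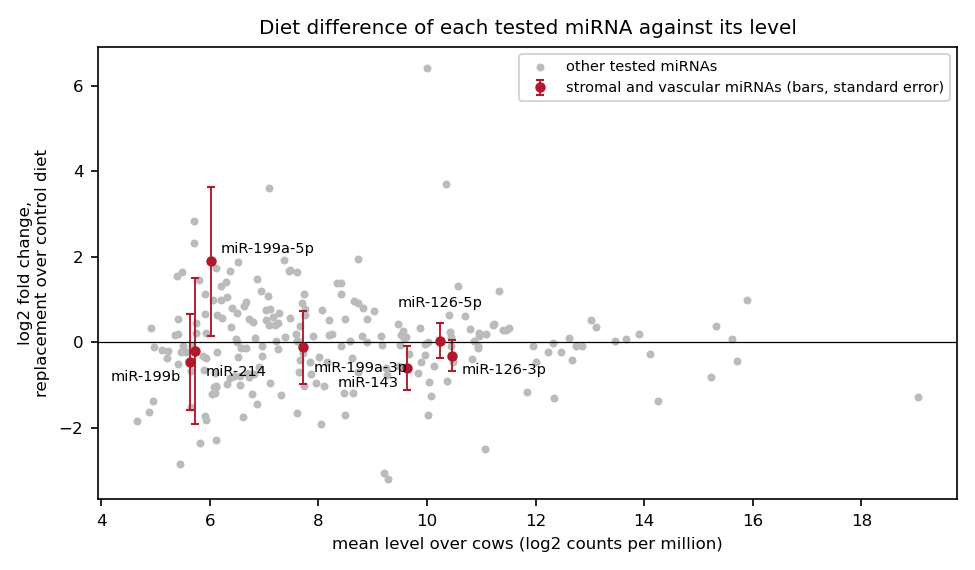
Log2 fold change between diets (vertical axis, replacement over control) against the mean level over cows (horizontal axis, log2 CPM, counts scaled to the library) for the 227 tested miRNAs, with the 7 tested stromal and vascular miRNAs in red and bars for the standard error of the fit. The 3 rarest of the 7, bta-miR-199a-5p, bta-miR-199b and bta-miR-214, have standard errors from 1.13 to 1.75, against 0.36 to 0.85 for the others.

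Of a list of other miRNAs of fibroblasts, smooth muscle and vessel walls, 10 rows were in the table and 6 were counted in every cow. They held 1.43% ± 0.237 (SD, n = 6), against 1.42% for the 8 members. The highest were bta-miR-10a with 0.503% ± 0.130 (SD, n = 6), bta-miR-100 with 0.455% ± 0.183 and bta-miR-29a with 0.221% ± 0.0797, a miRNA known to target collagen mRNAs. The list's share thus came mostly from its highest rows. At the low end, bta-miR-29c had 90 counts in 3 cows. bta-miR-455-3p, bta-miR-29b and bta-miR-195 had 11, 9 and 7 counts, each in 1 cow. No row was found for miR-130a, miR-497 or miR-218 of this list. Of the 6 rows of the list that were tested between diets, 0 rose and 0 fell (edgeR, adjusted p under 0.05), with a median log2 fold change of -0.57.

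Markers of other cell types were present beside the members. The mammary epithelium list (8 rows) held 0.743% ± 0.237 (SD, n = 6), most of it bta-miR-148a with 0.639%, with bta-miR-200a next at 0.0385% and bta-miR-205 at 0.0310%, from 200 and 156 counts over all cows. Of the other 5, bta-miR-152 had 93 counts, bta-miR-200c 57, bta-miR-429 21, bta-miR-141 20 and bta-miR-200b 2. The 8 members held more than this list in each of the 6 cows. In replacement cow 1, at 0.850% against 0.821%, the Wilson intervals of the 2 overlapped. Without the miR-126 arms, the members held 0.444% on average, less than this list. In control cow 3 they still held more, 0.824% against 0.751%. The leukocyte list (8 rows, led by bta-miR-150 at 1.51%) held 2.47% ± 0.515 and ran from 1.84% to 3.07%. In it, 7 rows were counted in every cow, and the remaining row, bta-miR-142-3p, had 1 count in 1 cow. As a share the leukocyte list was highest in replacement cow 3, with 2.88% in control cow 2 and 2.81% in control cow 3 next. In RPM it was highest in control cow 2, at 369.3 against 169.5 in replacement cow 3. The striated muscle list (5 rows) was low, with 0.0318% ± 0.0273 from 162 counts over all cows. Most were of bta-miR-499, with 110 counts, and bta-miR-1, with 36, each in 5 cows. bta-miR-133a had 8 counts in 1 cow, bta-miR-206 7 in 3 cows and bta-miR-133b 1 in 1 cow. No row was found for miR-208a or miR-208b. The list was highest in replacement cow 3, from 57 counts, at 0.0819% against 0.00682% to 0.0374% elsewhere. In RPM it had 4.52 there, against 0.840 to 2.97. bta-miR-199a-5p was highest in that cow on both scales. The part of muscle cells in that value was not tested.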

How the data were processed

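Per the paper's methods, the authors trimmed reads with Cutadapt 1.14, filtered out other RNA by Rfam after alignment to the cow genome, and annotated miRNAs with miRBase and miRDeep2. The submitters' processing notes name Bowtie and ARS-UCD1.2. The authors deposited counts of reads per mature miRNA with no normalization, and the same counts as RPM (under the name TPM, without a length term). A deposited table of the authors' own diet comparison (fold changes and p-values) was not used. How reads were counted, by strand or when several miRNAs matched, is not given in the sources used here.

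Shares used the sum of all bta- rows in a cow. Diet was tested with edgeR 4.0.16 (TMM, default filter, quasi-likelihood test, all 779 rows entered) in R 4.3.3. Alternatives used limma 3.58.1 and DESeq2 1.42.0. The edgeR script was tested on simulated counts. Other values came from Python 3.11.15. The labels do not say whether cow numbers pair the diets. Cows of the same number had correlations of deviations from the diet means of -0.11, -0.16 and 0.18. With 3 cows per diet these cannot settle it. None of the 15 pairs of libraries was alike within sampling noise. Whether the cows of a diet shared more than the diet is not stated, so p-values measure the spread between these cows.

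The members, lists and tests were chosen with earlier results of these data known. All members are named, with up to 3 of the highest miRNAs of each list, the 3 of most constant ratio to a member, and rows related by sequence. bta-miR-3604, bta-miR-152, bta-miR-200b, bta-miR-200c, bta-miR-429, bta-miR-141 and novel410_mature were named after their values were seen. The low rows of the leukocyte, vessel wall and striated muscle lists were also named after their values were seen. No hairpin sequences were used.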

Additional observations from a re-analysis of the deposited data

Results flagged for a closer look

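Over all 6 cows, 18 values were checked for a single distant cow, and 3 had one, where chance gives about 0.90 at a rate of 5%. Both diets were checked together, since 3 cows per diet are too few for such a check.

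The share of bta-miR-199a-5p was 0.115% in replacement cow 3 and at most 0.0130% in any other cow, with the gap taking 0.887 of the whole range (Dixon's test at 95%). The share of bta-miR-145 was 0.0131% in control cow 3, from 8 counts, and the next highest was 0.00431%, so that this value rests on few reads. The red blood cell list held 20.1% in control cow 3, and 10.9% in the next cow, while in RPM it had 990.4 there and 923.2 in control cow 2. The share of bta-miR-143 was also highest in that cow, but its gap of 0.589 of the range did not pass the critical value, and neither did the gap of bta-miR-199a-3p at 0.447.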

How the results depend on the processing

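The share of all 8 miRNAs was 1.28% with counts pooled over cows, 1.33% to 1.54% with each cow left out, and 0.376% with known and predicted miRNAs as the total. The number of neighbour pairs called was 0 on the log2 scale as well, where bta-miR-214 minus bta-miR-199b turned to -0.83. With 1 cow left out the neighbour test cannot reach an adjusted p under 0.05. Without replacement cow 3, bta-miR-199a-5p minus bta-miR-214 was -0.00396 and bta-miR-214 minus bta-miR-199b -0.00698 percentage points, and their highest values with a cow left out were 0.00986 and 0.00932.

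The number of miRNAs called between diets was 0 of 227 with TMM and the default filter. It was 15 of 779 with TMM and no filter, and 7 of 390 with DESeq2. With each cow left out it was 0 to 1 (1 of 279 without control cow 2 and 1 of 274 without control cow 3). No member was called under any of these settings. With the cow number as a replicate block 0 miRNAs were called, and 1 of 3 control cows resembled its own number best. Library size alone moved the median of all miRNAs from 0.03 to 0.63. Members that changed sign there were bta-miR-126-3p to 0.33, bta-miR-143 to 0.12, bta-miR-199a-3p to 0.60, bta-miR-214 to 0.43 and bta-miR-199b to 0.13. Relative to that median they were -0.30, -0.51, -0.03, -0.20 and -0.50. bta-miR-126-5p turned to -0.013 with known miRNAs only, to -0.07 without control cow 3 and to -0.21 without replacement cow 2. bta-miR-199a-3p turned to 0.0304 with the replicate block, 0.23 with limma, 0.76 without control cow 3 and 0.21 without replacement cow 2. bta-miR-199a-5p turned to -0.41 without replacement cow 3. bta-miR-214 turned to 0.38 without control cow 2, and to 0.31 and 0.35 without replacement cows 1 and 2. bta-miR-199b turned to 0.30 without control cow 1. With each cow left out, the log2 fold change ran from -0.21 to 0.22 for bta-miR-126-5p, -0.39 to 0.76 for bta-miR-199a-3p, -0.41 to 2.61 for bta-miR-199a-5p, -3.49 to 0.38 for bta-miR-214 and -1.09 to 0.30 for bta-miR-199b. The causes were not tested.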

Other observations

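One predicted row, novel410_mature, shared the seed of bta-miR-214, and no other predicted row shared a seed with a member. It had 33 counts in replacement cow 2, 1 count in replacement cow 3 and none in the other cows, whereas bta-miR-214 had none in replacement cow 2 and 41 counts in replacement cow 3. The 3 miRNAs highest in the leukocyte list were bta-miR-150, bta-miR-181a with 0.503% ± 0.0696 (SD, n = 6) and bta-miR-146a with 0.132% ± 0.0757. bta-miR-223, which platelets carry together with miR-126 and miR-199a, held 0.0480% ± 0.0319 (SD, n = 6).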
